A study of Mus musculus with 48 samples.

Results

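Imprinted genes other than the Dlk1-Dio3 cluster were followed through MKOS and OKMS reprogramming of mouse embryonic fibroblasts (MEFs) to induced pluripotent stem cells (iPSCs). The 10 genes were H19, Igf2, Igf2r, Cdkn1c, Plagl1, Grb10, Peg3, Peg10, Mest and Impact. They were taken by gene symbol from a table of 24264 transcripts, and all 10 were among the 15630 transcripts that passed the filter on low counts. Reads came from STRT, a multiplexed RNA-sequencing method that reads the 5′ ends of transcripts, and levels are given as reads per 1000000 reads on transcripts (CPM).

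The 48 libraries fell into 20 conditions. WT, MKOS and OKMS MEFs were the fibroblast conditions, with 2 libraries each. TNG MKOS and TNG OKMS embryonic stem cells (ESCs) were made from TNG ESCs, which carry a Nanog-GFP reporter, by targeting an intron of Sp3 with a doxycycline-inducible cassette of c-Myc, Klf4, Oct4 and Sox2, a CAG-driven rtTA and an mOrange reporter. The cassettes differ in gene order, and OKMS carries a shorter Klf4. MKOS and OKMS MEFs came from chimeric embryos made with these ESCs, so host-embryo cells could be among them, and each cassette traces back to its targeted ESC line. Reprogramming Tg MEFs, diluted with WT MEFs, received doxycycline and vitamin C and were sorted after 10 days (the protocol in the labels also names 15 days). Sorted populations had 3 libraries each. E-CAD+ or E-CAD- cells low in CD44 and without Nanog-GFP were taken with low ICAM1 (2NG-) or high ICAM1 (3NG-), and 3NG+ cells were CD44 low, ICAM1 high and Nanog-GFP+. E-CAD- populations were sequenced for OKMS alone. The pluripotent conditions, with 2 libraries each, were iPSCs of each cassette after doxycycline withdrawal (-dox), iPSCs of each cassette labelled 2i (a medium with inhibitors of MEK and GSK3), D6 iPSCs, and TNG, TNG MKOS, TNG OKMS and E14 ESCs. The labels do not say whether replicates were separate cultures or embryos, so p-values measure the spread between these libraries, which may be technical.

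Libraries held 1429717 to 14174725 reads on transcripts (median 6243254), so 3 reads, the limit that a count of 0 allows, corresponded to 0.212 to 2.10 CPM. This limit and the intervals given for ratios cover counting error only. The sum of 8 fibroblast genes averaged 3547 to 5023 CPM in the MEF conditions and 7.09 to 19.2 CPM in the iPSC and ESC conditions. The sum of 8 pluripotency genes averaged 2.30 to 8.37 CPM in MEFs and 12895 to 22228 CPM in iPSCs and ESCs. Sorted cells without Nanog-GFP lay between these on both lists, with fibroblast sums of 151 to 740 CPM.

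At an imprinted gene, a methylation mark set in egg or sperm makes the parental copies differ. A normal cell then transcribes mainly the maternal or mainly the paternal copy, and the marked copy is not always the silent copy. Several of these genes act on fetal growth, and many are active in embryonic mesenchyme and quiet in pluripotent cells. The marks can be lost in cultured ESCs and iPSCs, after which both copies or neither may be read. The counts here do not separate the parental copies and no methylation was measured, so the values below are total RNA. In bulk samples, fewer cells of a type and less RNA per cell cannot be told apart.

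H19 is a maternally expressed long noncoding RNA at 7:142575530-142578146, and Igf2, the paternally expressed growth factor gene beside it, lies at 7:142650768-142666816, both on the minus strand of GRCm38. They share enhancers and one imprinting control region. H19 also carries a microRNA, miR-675, whose 2 mature forms are shown here because the H19 transcript is their precursor. Sequences are from RefSeq (GRCm38.p6), written 5′ to 3′, with the seed (bases 2 to 8) in capitals.
miR-675-5p: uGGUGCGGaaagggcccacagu
miR-675-3p: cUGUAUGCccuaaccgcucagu

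Igf2r, on 17:12682406-12769706, encodes the receptor that takes up and degrades the IGF2 protein and is maternally expressed. Cdkn1c, on 7:143458339-143461059, encodes a cyclin-dependent kinase inhibitor and is maternally expressed. Both are on the minus strand.

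Plagl1, on 10:13090832-13131694 of the plus strand, encodes a zinc-finger transcription factor that slows growth. Grb10, on 11:11930499-12037428 of the minus strand, encodes an adaptor that damps insulin and IGF receptor signalling; it is read from the maternal copy in most tissues and from the paternal copy in neurons. Plagl1 was called between MEF lines and both genes were called among the pluripotent conditions, so their start regions are shown, each 250 bases before and 50 after an annotated start, from RefSeq (GRCm38.p6) on the gene's own strand. Capitals mark the hexamer TGCCGC on either strand (GCGGCA on the opposite one), the letters recognised by the imprint-protecting protein ZFP57 when methylated.
Plagl1, 10:13090582-13090881: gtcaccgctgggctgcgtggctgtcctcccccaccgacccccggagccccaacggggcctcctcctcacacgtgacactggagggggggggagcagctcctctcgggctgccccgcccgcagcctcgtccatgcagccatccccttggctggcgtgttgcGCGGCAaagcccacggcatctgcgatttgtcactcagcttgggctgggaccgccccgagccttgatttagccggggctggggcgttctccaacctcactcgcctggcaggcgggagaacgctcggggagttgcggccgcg
Grb10, 11:12037371-12037670: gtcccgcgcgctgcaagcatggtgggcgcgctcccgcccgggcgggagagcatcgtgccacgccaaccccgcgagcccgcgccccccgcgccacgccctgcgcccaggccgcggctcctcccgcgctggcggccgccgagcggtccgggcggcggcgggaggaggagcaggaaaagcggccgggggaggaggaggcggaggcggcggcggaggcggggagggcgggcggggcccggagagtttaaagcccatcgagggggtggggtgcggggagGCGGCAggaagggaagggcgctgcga
Grb10, 11:12027922-12028221: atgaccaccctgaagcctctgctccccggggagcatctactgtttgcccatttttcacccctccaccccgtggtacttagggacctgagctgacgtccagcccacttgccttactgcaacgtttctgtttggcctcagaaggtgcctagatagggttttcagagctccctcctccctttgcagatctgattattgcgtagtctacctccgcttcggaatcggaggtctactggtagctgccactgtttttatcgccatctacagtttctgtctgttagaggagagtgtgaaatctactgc

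The Plagl1 window held 26 CpG dinucleotides and 1 copy of the hexamer. The Grb10 windows held 45 CpG with 1 copy and 9 CpG with none. Over all 32851 such windows the median was 7 CpG, and 11.6% held the hexamer on either strand, against 5 of the 12 windows available for 6 of the 10 genes (Grb10, Igf2, Igf2r, Mest, Peg3 and Plagl1). Of these, 2 Mest windows overlap and both hold it, so that 4 of 11 separate regions do. The counts are per gene and do not say which start was used, and a match of letters is a description, not a binding site.

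Peg3, on 7:6703892-6730462 of the minus strand, encodes a zinc-finger protein, and Peg10, on 6:4747306-4760517 of the plus strand, derives from a retrotransposon and is needed in the placenta. Mest, on 6:30733506-30748466 of the plus strand, encodes a protein of the hydrolase family that is abundant in mesoderm, and Impact encodes a regulator of the translation-controlling kinase GCN2. All of Peg3, Peg10, Mest and Impact are paternally expressed. Reads of 9 of the 10 genes were at least 97.3% uniquely assigned, and those of Plagl1 83.2%.

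The 10 genes together took up a larger part of the reads in MEFs than in any later population. Their summed level averaged 5326 CPM in WT MEFs, 7707 CPM in those carrying MKOS and 5963 CPM in those carrying OKMS, most of it H19 or Igf2. It averaged 383 to 694 CPM in the sorted Nanog-GFP- populations, 282 and 283 CPM in the 3NG+ populations, and 179 to 417 CPM in iPSCs and ESCs. Highest condition means were found in MEFs for 8 genes, in OKMS iPSCs -dox for Peg10 and in TNG MKOS ESCs for Impact.

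**Figure D1:**
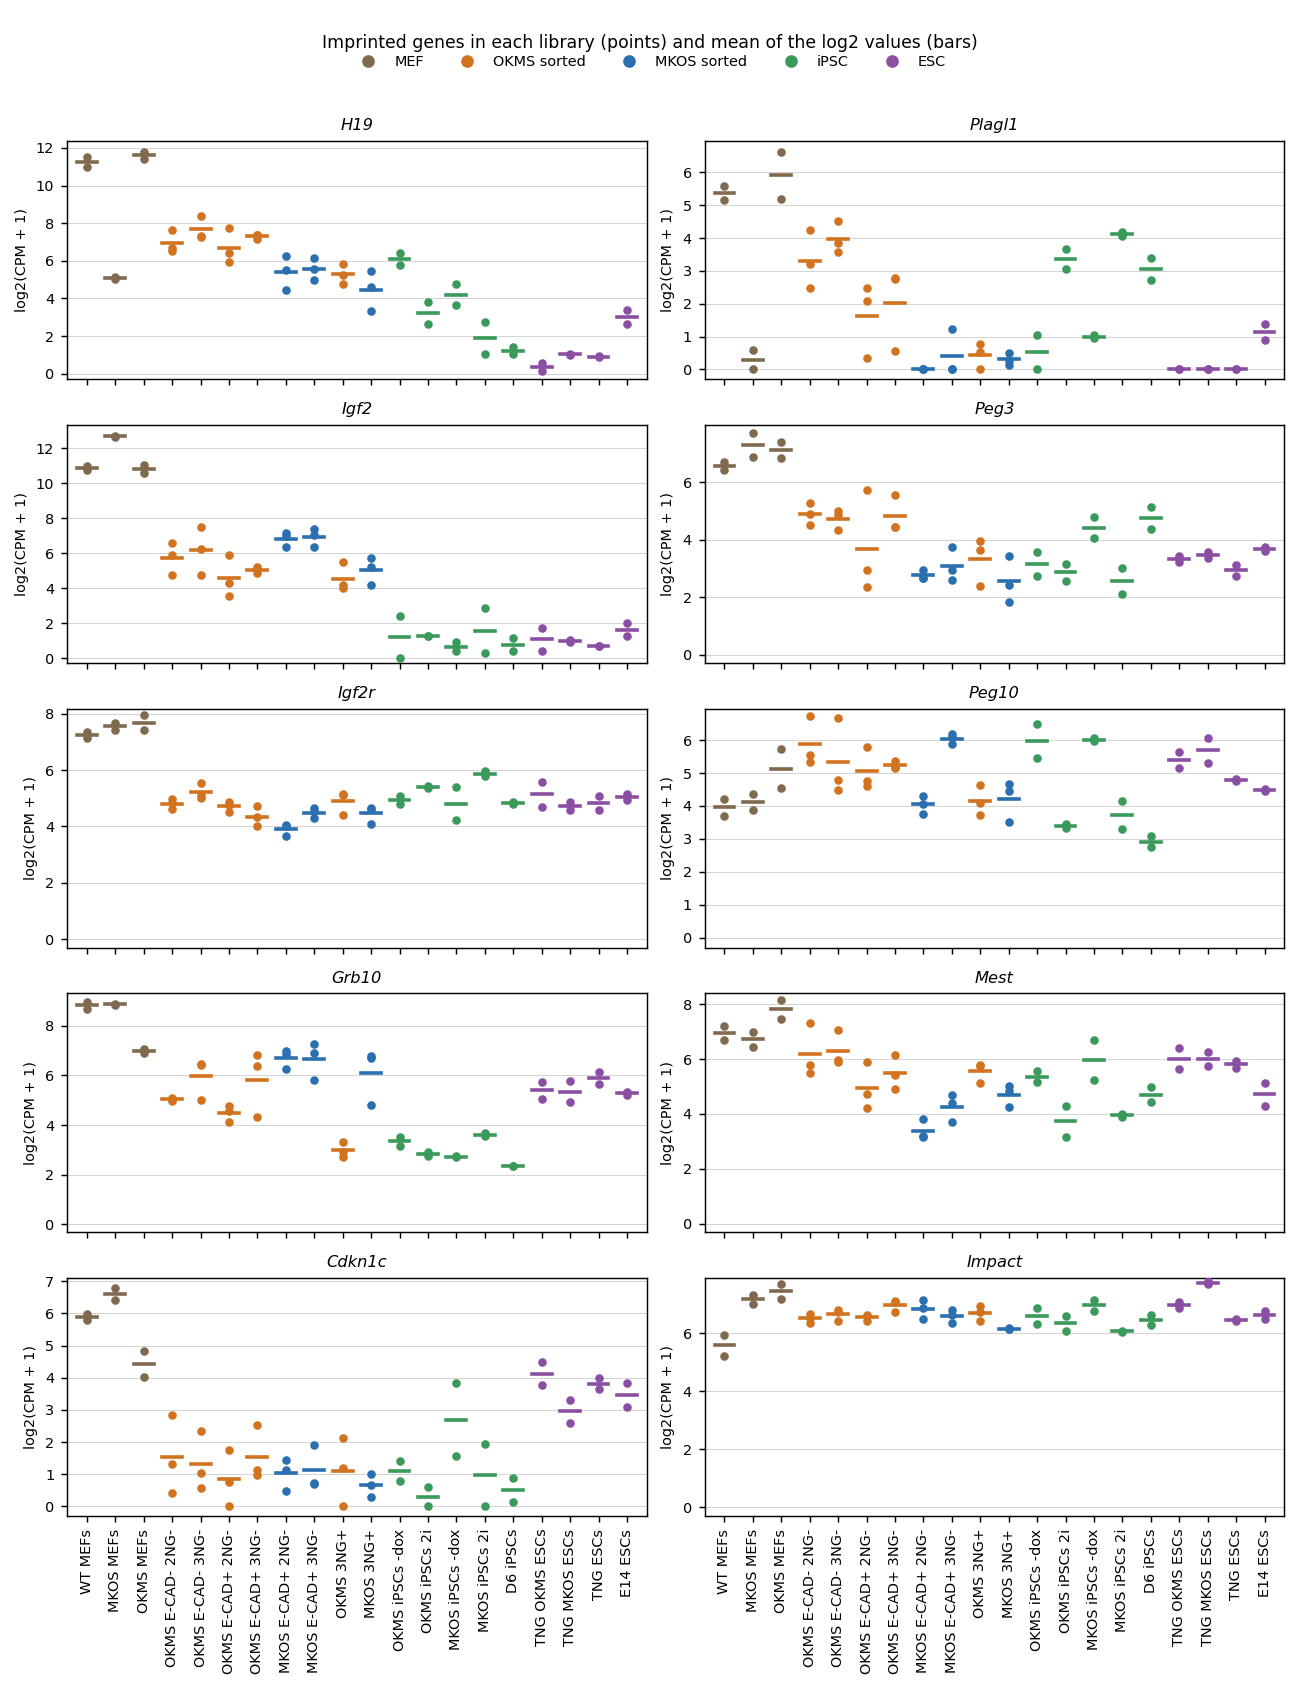
CPM of each of the 10 genes on a log2(CPM + 1) axis in every library (points) of the 20 conditions, with bars at the mean of the log2 values. Igf2 stood at 1532 to 6563 CPM in the 6 MEF libraries and at or below 6.16 CPM in all 18 iPSC and ESC libraries, whereas Impact stayed between 36.5 and 222 CPM throughout.

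The first comparison asked how these genes changed from MEFs to cells at the 2NG- stage. Calls were made at a false discovery rate (FDR, the Benjamini-Hochberg adjusted p of the edgeR quasi-likelihood test) of at most 0.05. Other fits were DESeq2, edgeR on only the libraries compared, edgeR without the low-count filter, and edgeR without 7 sorted libraries that the population averages of the study leave out. Over all comparisons, members not called by the edgeR test over all libraries were called 16, 16, 55 and 25 times by these fits, and the results below name the main cases. In MKOS reprogramming 6 of the 10 genes fell from MEFs to E-CAD+ 2NG- cells and none rose, while 27% of all tested transcripts were called in either direction and 12% fell. In OKMS reprogramming 9 fell and none rose, both to E-CAD- 2NG- cells (21.8% called, 10.1% lower) and to E-CAD+ 2NG- cells (29.2% called, 13.5% lower). The median log2 change of the 10 genes was -3.62, -2.49 and -2.73 in these comparisons, against a median of 0.00 over all tested transcripts in each. The OKMS comparisons share their MEF libraries.

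Igf2 and its receptor gene were among the genes that fell with both cassettes. Igf2 stood at 6441 and 6563 CPM in MKOS MEFs and at 124, 80.9 and 142 CPM in MKOS 2NG- cells, a log2 change of -5.85 ± 0.69 (SE, FDR = 2.39e-08). In OKMS it went from 1532 and 2103 CPM in MEFs to 18.4, 10.6 and 58.4 CPM in E-CAD+ 2NG- cells, a change of -5.74 (FDR = 2.83e-08). No sorted library of either cassette reached the lowest MEF library. Igf2r went from 171 and 204 CPM in MKOS MEFs to 15.3, 11.5 and 15.4 CPM in 2NG- cells, a log2 change of -3.76 ± 0.29 (FDR = 1.28e-12), the lowest condition mean of this gene. In OKMS E-CAD+ 2NG- cells it stood at 26.1, 21.9 and 28.1 CPM, a change of -2.89 (FDR = 3.90e-10) from 169 and 246 CPM in OKMS MEFs. Both genes stayed at these lower levels in 3NG- cells, where all 9 libraries lay between 26.1 and 180 CPM for Igf2 and between 15.0 and 45.5 CPM for Igf2r.

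Among other genes of the insulin-like growth factor system, more fell than rose with both cassettes. Of 13 tested, 6 fell and 1 rose from MKOS MEFs to E-CAD+ 2NG- cells, where 12% of all transcripts fell and 15% rose. In OKMS 6 fell and 2 rose, against 13.5% and 15.7%. The median log2 change of this list was -1.48 and -1.89. Igfbp3, Igfbp4 and Igfbp5, which encode IGF-binding proteins secreted by fibroblasts, changed by -4.46, -4.86 and -6.79 on the log2 scale in MKOS.

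Cdkn1c, Peg3, Mest and Grb10 also fell in all 3 comparisons with 2NG- cells. Cdkn1c went from 84.4 and 109 CPM in MKOS MEFs to 1.73, 1.18 and 0.406 CPM in 2NG- cells, a log2 change of -6.42 ± 1.02 (FDR = 5.42e-06). In OKMS MEFs it started lower, at 15.2 and 27.4 CPM, and E-CAD+ 2NG- cells stood at 0.682, 0 and 2.40 CPM (FDR = 0.00157). All 18 libraries of the sorted Nanog-GFP- populations lay at or below 6.20 CPM, under the lowest MEF library. Peg3 changed by -4.80 ± 0.63 in MKOS (FDR = 2.02e-07), to 5.41, 6.79 and 5.28 CPM from 116 and 205 CPM, and by -2.50 in OKMS E-CAD+ cells (FDR = 0.000907). Mest changed by -3.47 ± 0.49 in MKOS (FDR = 8.52e-07), to 8.26, 13.1 and 7.86 CPM from 85.7 and 126 CPM, and by -2.57 in OKMS E-CAD+ cells (FDR = 4.74e-05). Grb10 changed by -2.18 ± 0.45 in MKOS (FDR = 0.000227) and by -2.41 in OKMS E-CAD+ cells (FDR = 7.76e-05).

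In the OKMS comparison with E-CAD- 2NG- cells, the calls of Mest (log2 change -1.47, FDR = 0.0182), Cdkn1c (-2.92, FDR = 0.0166), Plagl1 (-2.70, FDR = 0.0243) and Impact (-0.96, FDR = 0.00262) did not hold without OKMS MEF replicate 2, at FDRs of 0.157, 0.108, 0.240 and 0.0546. Those of Mest, Cdkn1c and Plagl1 were also lost without replicate 1 (0.0885, 0.0720 and 0.101) or replicate 2 (0.107, 0.0785 and 0.0796) of the E-CAD- 2NG- cells. Impact changed by -0.79 in E-CAD+ cells (FDR = 0.0106, 0.104 without OKMS MEF replicate 2). The other 8 calls in E-CAD+ 2NG- cells of OKMS and all 6 in those of MKOS held with each library of the compared conditions left out in turn.

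Peg10 was the one gene not called in any of the 3. It stood at 13.7 and 19.7 CPM in MKOS MEFs and at 12.5, 18.9 and 15.7 CPM in MKOS 2NG- cells, ranges that overlap. In OKMS it stood at 22.5 and 51.5 CPM in MEFs, at 26.1, 23.5 and 53.9 CPM in E-CAD+ 2NG- cells and at 39.1, 46.0 and 106 CPM in E-CAD- 2NG- cells.

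Fibroblast markers fell in the same libraries. Their summed level was 611 CPM in MKOS 2NG-, 627 CPM in OKMS E-CAD- 2NG- and 151 CPM in OKMS E-CAD+ 2NG- cells, with none of the 8 genes at 0 in every library of these conditions and Col1a2, a collagen gene, the most abundant in each (215, 194 and 46.6 CPM). Their part in the fall of the imprinted genes was not tested.

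H19 set the MKOS line apart before reprogramming began. It stood at 2921 and 2024 CPM in WT MEFs and at 2730 and 3554 CPM in OKMS MEFs, but at 33.6 and 31.2 CPM in MKOS MEFs. All MKOS MEF values lay far below the other MEFs, with log2 differences of -6.24 ± 0.69 to WT (FDR = 4.46e-07) and -6.53 ± 0.70 to OKMS MEFs (FDR = 1.85e-07). Igf2 went the other way, with 6441 and 6563 CPM in MKOS MEFs above 2008 and 1733 CPM in WT and 1532 and 2103 CPM in OKMS MEFs. The groups did not overlap, but the log2 differences of 1.79 and 1.91 did not pass the test (FDR = 0.437 and 0.496). The outcome depended on the fit: with the same fold, the edgeR FDRs were 5.59e-05 and 0.000304 on only the libraries compared and 4.56e-08 and 8.44e-09 without the low-count filter, but 0.147 and 0.184 without the 7 sorted libraries and 0.593 and 0.589 in DESeq2. Within a library, H19 had 1.17 to 1.45 reads for each Igf2 read in WT MEFs, 1.69 to 1.78 in OKMS MEFs and 0.00476 to 0.00521 in MKOS MEFs. This ratio sets libraries side by side and does not rank the genes.

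Plagl1 had the same order in MEFs. It stood at 47.2 and 34.9 CPM in WT and at 35.3 and 97.9 CPM in OKMS MEFs, whereas the MKOS MEF libraries held 5 reads and 0 reads. Pooled over libraries, OKMS MEFs exceeded MKOS MEFs 211-fold (95% interval 90.3 to 652) and WT MEFs exceeded them 124-fold (53.1 to 384). The FDRs were 0.0083 and 0.00521. The first was lost without either MKOS MEF library (0.0600 without replicate 1, 0.232 without replicate 2) or without OKMS MEF replicate 2 (0.0522), and the second without MKOS MEF replicate 2 (0.207).

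H19 and Plagl1 were the 2 members among the 16 transcripts called between MKOS and OKMS MEFs (0.102% of those tested). On only the libraries compared, Cdkn1c was also called, higher in MKOS by 2.25 on the log2 scale (FDR = 4.06e-05, 0.681 over all libraries), and Mest, lower by 1.04 (0.0420 against 0.750), neither with overlap between groups. Against WT MEFs, 3 members were called for MKOS (0.422%) and 1 for OKMS (0.518%), comparisons that share the WT libraries. In both, Impact was higher in the transgenic MEFs, by 1.58 ± 0.27 on the log2 scale in MKOS (FDR = 0.000613) and 1.79 ± 0.27 in OKMS (FDR = 0.00021). Impact stood at 60.9 and 36.5 CPM in WT, 160 and 130 CPM in MKOS and 146 and 208 CPM in OKMS MEFs, without overlap, and both calls were lost without WT replicate 2 (0.129 and 0.0846). A test for any difference among the 3 MEF conditions called H19, Plagl1 and Impact (0.787%); Plagl1 was lost without either MKOS MEF library (0.0550 and 0.146) and Impact without WT replicate 2 (0.0715).

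Grb10 stood at 499 and 404 CPM in WT, 461 and 461 CPM in MKOS, but 119 and 131 CPM in OKMS MEFs. The groups did not overlap, though the differences of OKMS to WT (log2 -1.92, FDR = 0.0789) and to MKOS MEFs (1.94 higher in MKOS, FDR = 0.123) were not called in the edgeR test over all libraries. At the same fold both were called by DESeq2 (0.0284 and 0.0435) and by edgeR without the 7 sorted libraries (0.00360 and 0.00345), on only the libraries compared (0.000129 and 5.42e-05) and without the low-count filter (1.05e-05 and 6.33e-06). Nnat, an imprinted gene outside the domains of the 10, was lower in MKOS than in OKMS MEFs by 5.88 on the log2 scale (FDR = 0.0099), at 1.33 to 1.43 CPM against 83.3 to 91.0 CPM. It was the one call among 27 tested genes of other imprinted domains, and none of 20 tested neighbours of the 10 genes was called between these MEFs.

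**Figure D2:**
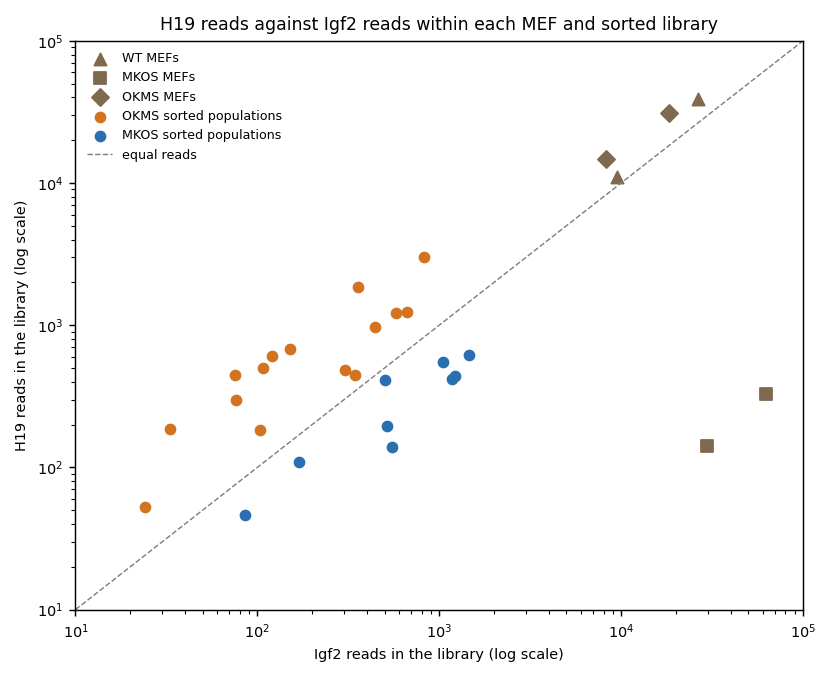
H19 reads (vertical) against Igf2 reads (horizontal) in each MEF and sorted library, on log axes, with a dashed line at equal reads. MKOS MEFs (squares) lie far below the line at 0.00476 to 0.00521 H19 reads per Igf2 read, MKOS sorted libraries below it at 0.254 to 0.824, and OKMS sorted libraries above it at 1.30 to 5.91.

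From these starting points H19 moved differently with the cassettes. In OKMS it fell from MEFs to E-CAD+ 2NG- cells by 4.55 ± 0.54 on the log2 scale (FDR = 1.86e-08), to 84.7, 60.3 and 213 CPM, and to 91.8, 102 and 198 CPM in E-CAD- 2NG- cells (-4.63, FDR = 2.99e-08). In MKOS 2NG- cells it stood at 44.6, 20.5 and 74.5 CPM, a range that includes the MKOS MEF values (log2 change 0.48 ± 0.52, FDR = 0.529). The difference between these changes was 5.03 ± 0.76 (FDR = 0.000124), the one member called among 1.35% of all transcripts.

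H19 was lower in MKOS than in OKMS in E-CAD+ cells of both sorted Nanog-GFP- stages. The log2 difference was -1.49 ± 0.46 in E-CAD+ 2NG- cells (FDR = 0.0494), where the groups overlapped, and -1.80 ± 0.47 in 3NG- cells (FDR = 0.0271), with 46.8, 31.0 and 70.1 CPM in MKOS below 166, 163 and 143 CPM in OKMS. The first was lost without OKMS replicate 3 (log2 difference -0.69, FDR = 0.496) or MKOS replicate 1 (0.146) or 2 (0.262). It was also lost in DESeq2 (0.0739), without TMM factors (0.0739), without the 7 libraries (0.140) and on only the libraries compared (0.128). The second was lost without OKMS replicate 1 (0.0670) or 2 (0.0767) or MKOS replicate 1 (0.102) or 2 (0.157). Igf2 was higher in MKOS at both stages without overlap, by 1.80 ± 0.57 in 2NG- and 1.85 ± 0.58 in 3NG- cells, and did not pass the test in either (FDR = 0.0569 and 0.0835). The first was called without the 7 libraries (0.00572) and without TMM factors (0.0372), the second on only the libraries compared (0.0111), and both without the low-count filter (9.61e-13 and 4.31e-13), but neither by DESeq2 (0.125 and 0.189). The 8 fibroblast genes also summed to more in MKOS, without overlap, with 396 to 810 CPM against 79.3 to 235 CPM in OKMS E-CAD+ 2NG- cells and 559 to 993 CPM against 156 to 296 CPM in 3NG- cells. Their part in the differences between cassettes, Igf2 and Grb10 included, was not tested.

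In the comparison of cassettes in E-CAD+ 2NG- cells, 6 of the 10 genes were called (5.07% of all transcripts), 5 lower in MKOS (2.23%) and 1 higher (2.84%). Grb10 was the one higher in MKOS, at 124, 115 and 74.5 CPM against 16.5, 26.4 and 22.4 CPM in OKMS, a log2 difference of 2.18 ± 0.43 (FDR = 0.00114) without overlap. Plagl1 had no read in any of the 3 MKOS libraries and 4.60, 3.22 and 0.282 CPM in OKMS. That made it at least 7.02-fold lower in MKOS (floor of 3 reads per library, FDR = 0.00499). The lowest OKMS value, of replicate 3, was near the limit of 3 reads in that library, 0.212 CPM. Mest was lower by 1.95 ± 0.45 on the log2 scale (FDR = 0.00545) and Igf2r by 0.95 ± 0.26 (FDR = 0.0233), neither with overlap between groups. Mest lost its call without OKMS replicate 3 (log2 difference -1.21, FDR = 0.158) or without the 7 libraries (-1.13, FDR = 0.114). Igf2r lost it without OKMS replicate 1 (0.0621) or 3 (0.126) or MKOS replicate 1 (0.0523) or 2 (0.146), without the 7 libraries (0.117), without TMM factors (0.0625) and on only the libraries compared (0.0647). Peg10, 1.27 lower in MKOS without overlap, was called by DESeq2 alone among the filtered fits (0.0467, against 0.0590).

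Peg3 in the same comparison rested on one library. It stood at 5.41, 6.79 and 5.28 CPM in MKOS and at 4.09, 6.77 and 52.3 CPM in OKMS, a log2 difference of -2.06 ± 0.56 (FDR = 0.0212) in which only OKMS replicate 3 lay outside the MKOS range on the high side. Without that library the difference was 0.091 in the other direction (FDR = 0.995), and the call was also lost without each MKOS library (0.0637 to 0.0901) and on only the libraries compared (0.173). The same library stood apart in primitive and visceral endoderm markers, whose 8 genes summed to 54.7 CPM in it, with Foxa2 at 14.4 CPM the most abundant, Sox7 at 0 and Afp at 1 read. In the other OKMS and all MKOS libraries of E-CAD+ 2NG- cells Foxa2 and Sox17 had no read. The part of these markers in the Peg3, Mest and H19 values of that library was not tested.

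In E-CAD+ 3NG- cells, where 2 members were called between cassettes (2.17%), Peg3 stood at 12.5, 5.04 and 6.74 CPM in MKOS and 20.6, 20.7 and 46.1 CPM in OKMS, without overlap (log2 difference -1.95 ± 0.55, FDR = 0.0494). That call was lost without OKMS replicate 1 (0.0557), 2 (0.0664) or 3 (0.261), or MKOS replicate 2 (0.205) or 3 (0.180), and without TMM factors (0.0603), without the 7 libraries (0.178) and on only the libraries compared (0.0646). The OKMS library with the highest Peg3 value, replicate 3, also had the highest sum of the endoderm markers, 70.4 CPM with Gata4 (22.1 CPM), Foxa2 (17.2 CPM) and Sox17 (13.7 CPM) leading and Sox7 and Afp at 0, while MKOS libraries held 10.6 to 18.2 CPM with no read of Foxa2 or Sox17. Their part in the difference was not tested. DESeq2 called 4 members at this stage, with Plagl1 (log2 -3.22, FDR = 0.0458, against 0.0825 in edgeR) and Mest (-1.45, FDR = 0.0375, against 0.0766) also lower in MKOS, though neither was called without the 7 libraries (0.321 and 0.442).

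Neighbours of the 10 genes also differed between cassettes in 2NG- cells, with 3 of 20 tested higher in MKOS and 2 lower (median log2 difference -0.07), against 2.84% and 2.23% of all transcripts. Phlda2, a maternally expressed placental growth regulator in the Cdkn1c domain, averaged 144 CPM in MKOS against 3.09 CPM in OKMS E-CAD+ 2NG- cells, a log2 difference of 5.30. Slc22a18, its transporter-encoding neighbour, averaged 12.0 CPM against 0.184 CPM (5.63). Kcnq1ot1, the noncoding RNA of that domain, was lower in MKOS by 1.36. Of 27 genes of other imprinted domains 2 were higher and 3 lower. Zdbf2, a paternally expressed gene that acts in the hypothalamus, averaged 3.53 CPM in MKOS against 50.1 CPM in OKMS (-3.87), and its change from MEFs differed between cassettes by -4.01 on the log2 scale.

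**Figure D3:**
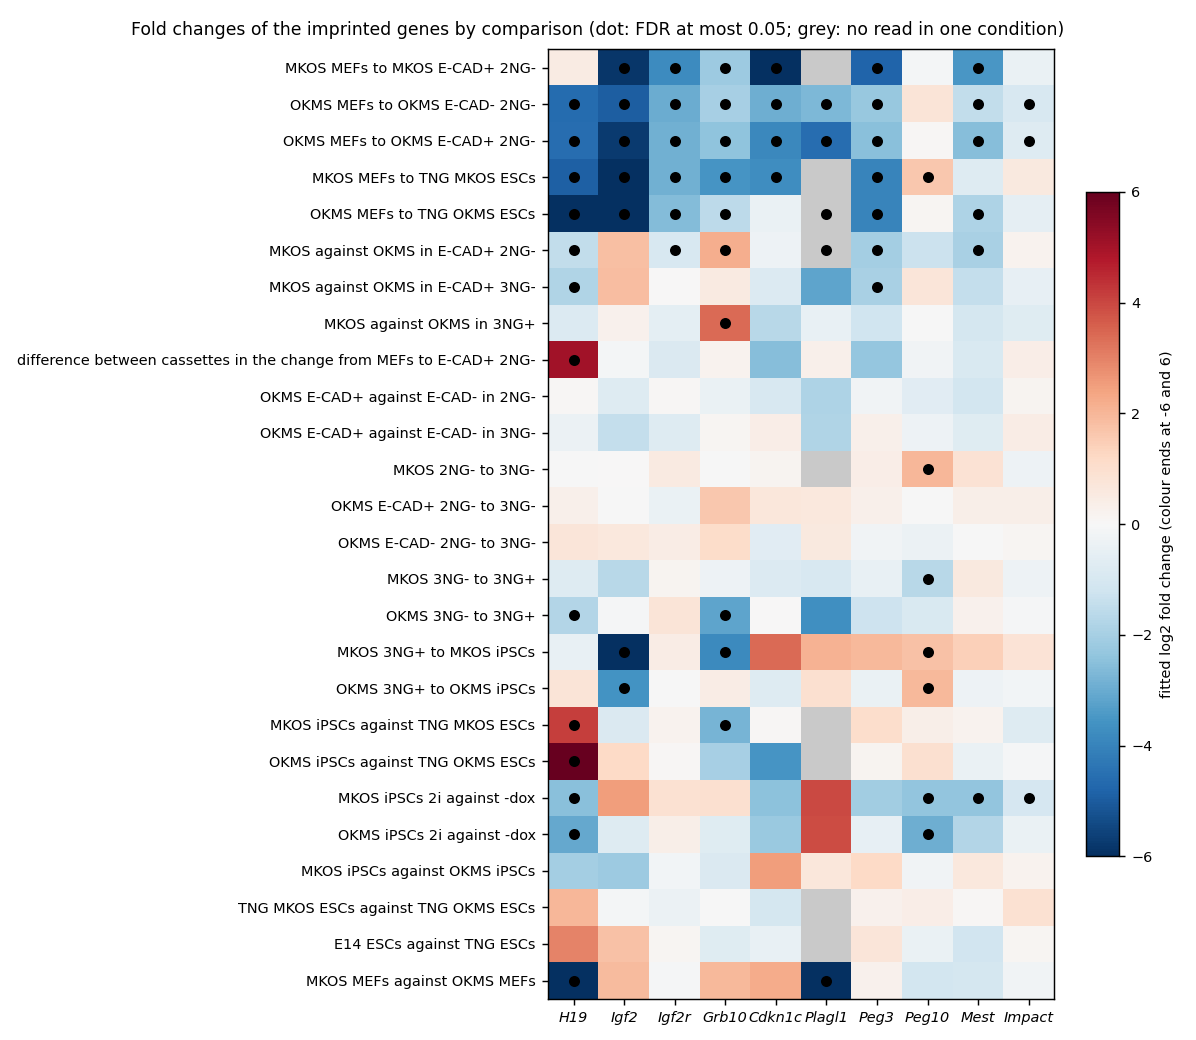
Fitted log2 change of each of the 10 genes (columns) in each comparison (rows) as colour, with a dot where the FDR was at most 0.05 and grey where one condition had no read. The rows from MEFs to sorted cells or ESCs carry 6 to 9 dots each, and the rows between sorted populations of one cassette at most 2.

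Within a cassette, few members were called between the gates of E-CADHERIN and ICAM1, as were few of all transcripts. Between E-CAD+ and E-CAD- cells of OKMS the edgeR test called 0 members in 2NG- cells (2.38% of transcripts) and 0 in 3NG- cells (1.75%), with 2 and 3 members at an unadjusted p under 0.05 and 0 called by DESeq2 in each. The epithelial list, the sum of 6 genes with Cdh1 among them, averaged 161 and 89.3 CPM in the E-CAD- populations against 1126 and 860 CPM in the E-CAD+ ones. From 2NG- to 3NG- the test called 0 members in OKMS E-CAD+ cells (0.0384%) and 0 in E-CAD- cells (0.0448%), each with 1 at an unadjusted p under 0.05 and 0 by DESeq2. Without the 7 libraries, Peg3 was called lower in E-CAD+ than in E-CAD- 2NG- cells (log2 -2.23, FDR = 0.00953, against -0.23 and 0.916 with all libraries) and Grb10 higher in E-CAD+ 3NG- than in 2NG- cells (2.12, FDR = 0.00370, against 1.63 and 0.379).

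In MKOS, Peg10 was the 1 member called from 2NG- to 3NG- cells (0.39% of transcripts called), with 3 members at an unadjusted p under 0.05. Igf2r also stood higher in 3NG- cells without overlap, at 18.7 to 24.1 CPM against 11.5 to 15.4 CPM, and was not called. Peg10 went from 12.5, 18.9 and 15.7 CPM to 57.4, 71.0 and 67.0 CPM, a log2 change of 1.97 ± 0.41 (FDR = 0.0134) without overlap. In 3NG+ cells it was back at 24.2, 10.5 and 20.8 CPM, again without overlap, a change of -1.65 ± 0.41 (FDR = 0.0249, 1 member called against 1.58% of transcripts). In MKOS iPSCs -dox it stood at 61.6 and 65.3 CPM, 1.76 ± 0.44 above 3NG+ cells (FDR = 0.0221). The comparisons share the 3NG- and the 3NG+ libraries. The first call was lost without any one of the 2NG- libraries (0.0671 to 0.138), the second without any 3NG- library (0.0507 to 0.0951) or 3NG+ replicate 2 (0.201) or 3 (0.0621), and the third without 3NG+ replicate 2 (0.121) or either iPSC library (0.108 and 0.124).

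Sgce, the paternally expressed gene that shares its promoter region with Peg10, was the only called one among the 20 neighbours at the MKOS step to 3NG+, with a log2 change of -2.41.

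Grb10 differed between cassettes in Nanog-GFP+ cells. In OKMS it fell from 110, 81.4 and 19.1 CPM in E-CAD+ 3NG- cells to 6.56, 9.09 and 5.58 CPM in 3NG+ cells, a log2 change of -3.17 ± 0.48 (FDR = 3.73e-05) without overlap. In MKOS it stood at 153, 120 and 54.6 CPM in 3NG- cells and still at 107, 104 and 27.2 CPM in 3NG+ cells. The difference between cassettes within 3NG+ was 3.39 ± 0.48 (FDR = 0.000102) and Grb10 was the 1 member called there (0.685%). DESeq2 called 2, the other being Impact, 0.75 lower in MKOS (FDR = 0.0226, against 0.104 in edgeR) at 70.1 to 71.3 CPM below 85.3 to 123 CPM. Without the 7 libraries Impact (0.0364) and Mest (-1.27, FDR = 0.0435) were called as well. The difference between the 2 changes was 2.85 ± 0.62 and did not pass the edgeR test (FDR = 0.118), for which 0 members were called (0.0256%), with 1 at an unadjusted p under 0.05 and 1 called by DESeq2, namely Grb10 at 0.0106. It was also called by edgeR without the 7 libraries (3.05, FDR = 0.00115) and without the low-count filter (5.13e-09), but not on only the libraries compared (0.276).

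In MKOS, Grb10 fell between 3NG+ cells and iPSCs. It stood at 5.70 and 5.50 CPM in MKOS iPSCs -dox, a log2 change of -3.84 ± 0.56 from 3NG+ cells (FDR = 2.72e-05). OKMS iPSCs -dox stood at 10.5 and 8.02 CPM, 0.43 above their 3NG+ cells (FDR = 0.811). The changes differed by -4.27 ± 0.75 (FDR = 0.00419, 0.064% of transcripts called), a call lost without OKMS iPSC -dox replicate 1 (0.0781) or MKOS iPSC -dox replicate 1 (0.107). Fibroblast markers in 3NG+ libraries summed to 97.2 to 614 CPM in MKOS and 143 to 300 CPM in OKMS, and to at most 28.0 CPM in iPSCs -dox. Their part in the Grb10 values was not tested.

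H19 fell from 3NG- to 3NG+ cells in OKMS and Igf2 from 3NG+ cells to iPSCs with both cassettes. In OKMS, H19 fell by 1.76 ± 0.47 on the log2 scale from 3NG- to 3NG+ cells (FDR = 0.0187), to between 26.3 and 56.4 CPM in the 3 libraries, one of 2 members called (6.26% of transcripts). That call was lost without 3NG- replicate 1 (0.0545) or 2 (0.0629) or 3NG+ replicate 2 (0.0594) or 3 (0.105). In MKOS the H19 change at this step was -0.79 (FDR = 0.405). Igf2 stood at 132, 81.4 and 166 CPM in MKOS 3NG- cells and lower, without overlap, in 3NG+ cells, a log2 change of -1.68 (FDR = 0.12) that was called on only the libraries compared (0.0289) and without the low-count filter (6.65e-11), but not by DESeq2 (0.211). From 3NG+ cells to iPSCs -dox the H19 change was -0.45 in MKOS (FDR = 0.778) and 0.75 in OKMS (FDR = 0.576), with groups that overlap. Plagl1 had a change of -3.67 from OKMS 3NG- to 3NG+ cells that was not called in the edgeR test over all libraries (FDR = 0.0533). DESeq2 called it (0.0252), as did edgeR without the 7 libraries (0.0396), without TMM factors (0.0367) and without the low-count filter (0.00117). Igf2 fell from 35.5, 16.8 and 51.5 CPM in MKOS 3NG+ cells to 0.311 and 0.887 CPM in iPSCs -dox (log2 -6.01 ± 1.01, FDR = 0.000258, 3 members called against 2.14%). DESeq2 called 5, adding Impact (log2 0.80, FDR = 0.0163, against 0.0684 in edgeR) and Cdkn1c (3.53, FDR = 0.0342, against 0.0684), both higher in iPSCs. Without the 7 libraries these (0.0364 and 0.0116), Mest (1.44, FDR = 0.00865) and Peg3 (1.96, FDR = 0.00349) were called higher in iPSCs as well, and none of the 4 overlapped between groups. The Cdkn1c difference rested on iPSC -dox replicate 2, at 13.1 CPM against 1.97 CPM in replicate 1, and without it was 1.48 (FDR = 0.679). That library also stood apart in endoderm markers, with a sum of 50.6 CPM against 6.12 CPM, whose part was not tested. In OKMS, Igf2 fell from 43.5, 16.8 and 14.9 CPM to 0 and 4.28 CPM (-3.59 ± 0.86, FDR = 0.0354, 2 members against 0.614%). That call was lost without 3NG+ replicate 1 (0.179) and on only the libraries compared (0.180). It was also lost without iPSC -dox replicate 1, where the log2 change was -2.69. Peg10 was the other OKMS call, 1.95 ± 0.46 higher in iPSCs -dox (FDR = 0.0312), lost without 3NG+ replicate 1 (0.151) or 3 (0.111) or iPSC replicate 1 (0.592) and on only the libraries compared (0.0526).

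Within pluripotent cells, most of the 10 genes differed between conditions. A test for any difference among the 9 iPSC and ESC conditions called 7 of the 10 genes, against 9.55% of all transcripts. They were H19 (FDR = 4.92e-11), Grb10 (2.80e-07), Plagl1 (6.54e-06), Peg10 (9.28e-06), Impact (0.000448), Cdkn1c (0.00174) and Mest (0.00374), and each held with any one of the 18 libraries left out. Igf2 (0.646), Igf2r (0.159) and Peg3 (0.0512) were not called, though Peg3 was on only the libraries compared (0.00813) and without the 7 sorted libraries (0.000257). Between MKOS and OKMS iPSCs -dox the edgeR test called 0 members (0.0192%), with 2 at an unadjusted p under 0.05, and between TNG MKOS and TNG OKMS ESCs 0 (0.064%), with 1. DESeq2 called 0 in both.

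**Figure D4:**
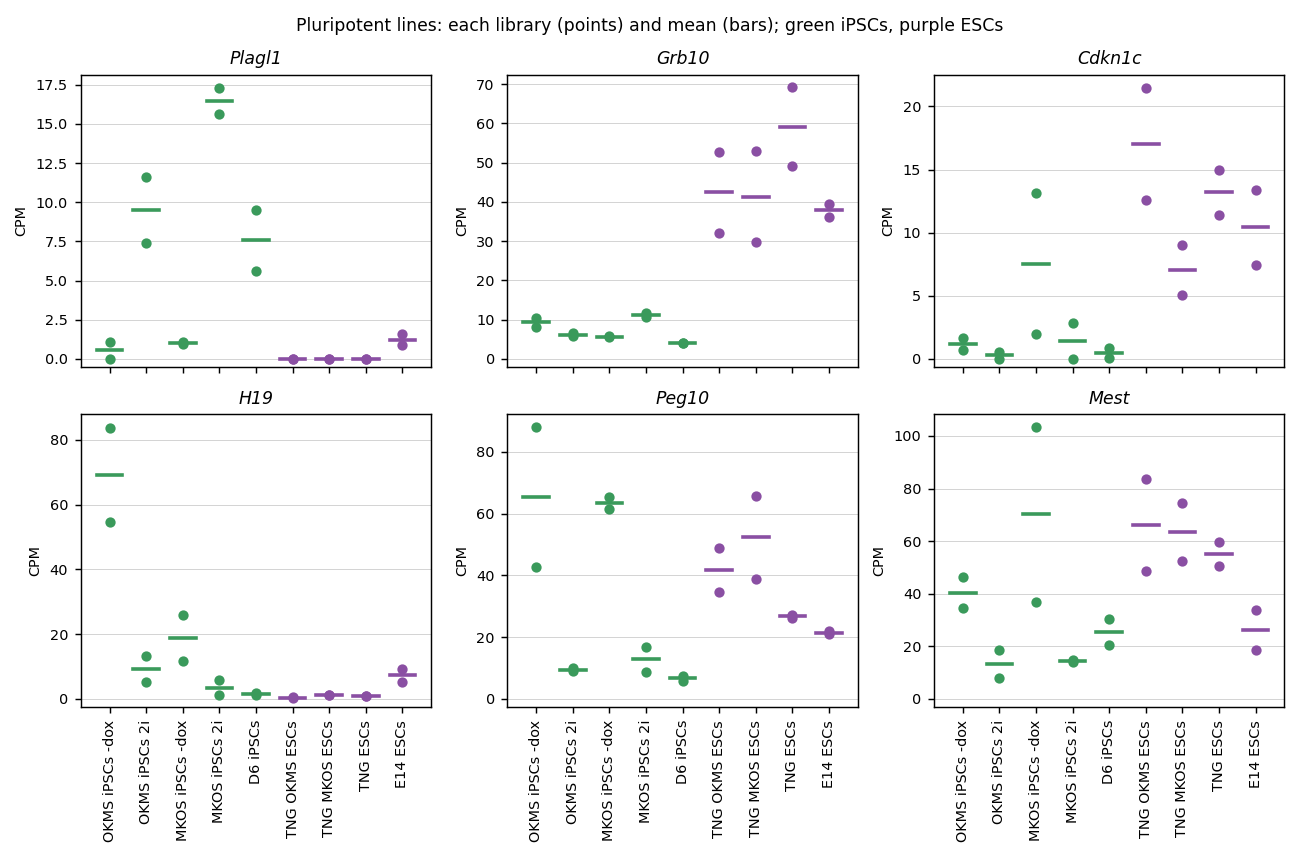
CPM of Plagl1, Grb10, Cdkn1c, H19, Peg10 and Mest in each library (points) of the 9 iPSC (green) and ESC (purple) conditions, on linear axes, with bars at the mean. Grb10 lies at 4.03 to 11.7 CPM in the 10 iPSC libraries and at 29.7 to 69.2 CPM in the 8 ESC libraries, and Plagl1 is at 0 in the 6 libraries of TNG-derived ESCs.

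H19 separated iPSCs -dox from the parental ESCs. OKMS iPSCs -dox stood at 83.7 and 54.5 CPM, and TNG OKMS ESCs held 3 reads and 1 read (0.503 and 0.109 CPM), a pooled ratio of 257 (95% interval 100.0 to 946, FDR = 7.63e-07, 1 member called against 0.608%). MKOS iPSCs -dox stood at 25.9 and 11.5 CPM and TNG MKOS ESCs at 1.08 and 1.02 CPM, a log2 difference of 4.15 ± 0.75 (FDR = 0.00341, 2 members against 0.307%). The MKOS call was lost without iPSC replicate 1 (0.0732) or either ESC library (0.0617 and 0.160). In both cassettes the iPSC and ESC libraries did not overlap. TNG ESCs held 0.887 and 0.871 CPM and E14 ESCs 5.31 and 9.29 CPM. Between E14 and TNG ESCs 0 members were called by edgeR (0.0448%), with 3 at an unadjusted p under 0.05 and 1 called by DESeq2, and H19 differed by 2.96 on the log2 scale (FDR = 0.158). H19 was the DESeq2 call (0.0274), and it was called by edgeR without the 7 sorted libraries (0.0234), but not on only the libraries compared (0.0513).

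Grb10 was lower in every iPSC library than in every ESC library. The 10 iPSC libraries ranged from 4.03 to 11.7 CPM and the 8 ESC libraries from 29.7 to 69.2 CPM. Against the parental ESCs the log2 difference was -2.81 ± 0.56 for MKOS iPSCs -dox (FDR = 0.00986) and -1.97 for OKMS (FDR = 0.0781). The OKMS difference was called by DESeq2 (0.0217), without the 7 sorted libraries (0.00483) and without TMM factors (0.0367), but not on only the libraries compared (0.116). The MKOS call was lost without either iPSC library (0.121 and 0.157) or ESC replicate 2 (0.160). For 2i iPSCs the differences were -1.87 in MKOS (FDR = 0.0297) and -2.70 in OKMS (FDR = 0.00315).

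The iPSCs labelled 2i differed from those -dox in several of these genes. In MKOS 4 members were lower in 2i and none higher (1.97% of transcripts called, 1.08% lower), and in OKMS 2 were lower and none higher (0.505% called, 0.365% lower). H19 stood at 1.08 and 5.72 CPM in MKOS 2i iPSCs (log2 difference -2.52 ± 0.69, FDR = 0.0443) and at 13.2 and 5.27 CPM in OKMS 2i iPSCs (-3.06 ± 0.63, FDR = 0.0104). Peg10 stood at 16.6 and 8.80 CPM in MKOS (-2.39 ± 0.52, FDR = 0.00802) and at 9.86 and 8.96 CPM in OKMS (-2.95 ± 0.53, FDR = 0.00256). For both genes and both cassettes all 2i libraries lay below all -dox libraries. In MKOS, Mest at 14.9 and 13.9 CPM against 36.8 and 103 CPM (-2.35 ± 0.56, FDR = 0.0153) and Impact at 66.8 and 65.6 CPM against 143 and 109 CPM (-0.99 ± 0.27, FDR = 0.0399) were lower as well. In OKMS their differences of -1.75 and -0.39 were not called (FDR = 0.152 and 0.623), though that of Mest was without the 7 sorted libraries (0.0157). Without MKOS iPSC -dox replicate 2, at 103 CPM, the MKOS difference of Mest was -1.40. That library also stood apart in Dab2, an endoderm marker abundant in MEFs too, at 38.0 CPM against 1.97 CPM in replicate 1. The endoderm markers Sox17, Foxa2 and Afp were at 0 in it. The part of these markers was not tested. In MKOS, DESeq2 also called Plagl1 and Igf2r higher in 2i, the latter by 0.97 (FDR = 0.0447, against 0.126 in edgeR), and Peg3 was called lower without the 7 libraries (-2.06, FDR = 0.0108, against 0.132).

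All 6 of these calls lost significance without some library of 2 against 2. Without MKOS 2i replicate 2 Peg10 had an FDR of 0.124. H19 in MKOS was lost without -dox replicate 1 (0.341) or 2i replicate 1 (0.436), and Mest without -dox replicate 2 (0.421) or 2i replicate 1 (0.141) or 2 (0.107). Impact was lost without any of the 4 (0.0736 to 0.258). In OKMS, Peg10 was lost without -dox replicate 1 (0.115) or either 2i library (0.0629 and 0.0980), and H19 without -dox replicate 1 (0.130) or 2i replicate 2 (0.265). On only the libraries compared, H19 (0.180), Mest (0.0546) and Impact (0.216) were not called in MKOS.

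Plagl1 appeared in 2i iPSCs and in D6 iPSCs and had no read in TNG-derived ESCs. It stood at 17.3 and 15.6 CPM in MKOS 2i, 11.6 and 7.38 CPM in OKMS 2i and 9.53 and 5.60 CPM in D6 iPSCs, against 0.933 and 1.06 CPM in MKOS and 0 and 1.07 CPM in OKMS iPSCs -dox. All 6 libraries of TNG, TNG MKOS and TNG OKMS ESCs were at 0, and E14 ESCs held 12 and 7 reads (1.59 and 0.867 CPM). Against the parental ESCs it was at least 45.1-fold higher in MKOS 2i (FDR = 0.000583) and at least 22.9-fold higher in OKMS 2i iPSCs (FDR = 0.00323, 0.0866 without TNG OKMS ESC replicate 1). The differences of 2i to -dox iPSCs, 3.97 in MKOS and 3.93 in OKMS on the log2 scale, were not called in the edgeR test over all libraries (FDR = 0.0621 and 0.152). The MKOS difference was called by DESeq2 (0.0221), without the 7 sorted libraries (0.0135) and on only the libraries compared (0.0224). The OKMS one was called without the 7 sorted libraries (0.0474), but not by DESeq2 (0.0740) or on only the libraries compared (0.344).

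Against parental ESCs, 6 members were called for each set of 2i iPSCs (5.28% of transcripts in MKOS, 2.99% in OKMS), comparisons that share the ESC libraries with those of iPSCs -dox. Peg10 and Mest were lower in both, by 2.05 and 2.15 on the log2 scale in MKOS (FDR = 0.0116 and 0.0134) and by 1.99 and 2.14 in OKMS (FDR = 0.0248 and 0.0225). Impact was lower in MKOS 2i by 1.75 (FDR = 3.76e-05) and Igf2r was higher by 1.14 (FDR = 0.023; 0.168 on only the libraries compared). H19 was higher in OKMS 2i iPSCs, with a pooled ratio of 34.9 (95% interval 13.2 to 130, FDR = 0.00119). With single libraries left out, Impact and Plagl1 in MKOS and H19 in OKMS held, and the other 9 calls were each lost without at least 1 of their 4 libraries.

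D6 iPSCs, for which the labels give no medium or cassette, had H19 at 1.66 and 1.05 CPM and Peg10 at 5.70 and 7.44 CPM. Both lay below MKOS iPSCs -dox without overlap, by 3.66 (FDR = 0.00369) and 3.13 (FDR = 0.000588) on the log2 scale, and were the 2 members called (0.889%). H19 lost its call without MKOS iPSC replicate 1 (0.0796) or either D6 library (0.0762 and 0.145), and Peg10 without D6 replicate 1 (0.0679). Cdkn1c was called lower in D6 by DESeq2 (FDR = 0.0448) and without the 7 sorted libraries (0.0263), but not by edgeR over all libraries (0.122).

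Cdkn1c stood higher in every ESC library than in 9 of the 10 iPSC libraries. The 8 ESC libraries ranged from 5.09 to 21.5 CPM. The iPSC libraries lay at 0 to 2.81 CPM, except MKOS iPSC -dox replicate 2 at 13.1 CPM, the library in which 8 primitive and visceral endoderm markers summed to 50.6 CPM, against 6.12 CPM in replicate 1. Dab2, which stood at 45.3 to 70.5 CPM in MEFs, made up 38.0 CPM of that sum, while Sox17, Foxa2 and Afp were at 0. The part of these markers in the Cdkn1c value was not tested. OKMS 2i iPSCs, with 3 reads and 0 reads, were lower than TNG OKMS ESCs (FDR = 0.0109), a call lost without either 2i library (0.0672 and 0.152) or ESC replicate 1 (0.0644). OKMS iPSCs -dox were not called against the same ESCs by edgeR over all libraries (log2 difference -3.52, FDR = 0.133) or by DESeq2 (0.0600). They were called without the 7 sorted libraries (0.0373) and on only the libraries compared (0.0488).

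Compared directly, MEFs and their parental ESCs differed in 7 members for each cassette, 6 lower and 1 higher in TNG MKOS ESCs (33.3% of transcripts called, 15.7% lower) and 7 lower in TNG OKMS ESCs (34.4%, 16.2% lower). Igf2 was lower by 12.64 in MKOS and 10.62 in OKMS on the log2 scale, Peg3 by 3.94 and 3.98, and Igf2r by 2.87 and 2.62. Grb10 was lower by 3.53 in MKOS and by 1.55 in OKMS (FDR = 0.0152, 0.0540 without OKMS MEF replicate 1 and 0.183 without ESC replicate 1). Igf2, Peg3, Igf2r and Grb10 were thus lower in the ESCs of both cassettes. Mest was lower in OKMS by 1.87 (FDR = 0.00532, 0.0691 without ESC replicate 2) and Cdkn1c in MKOS by 3.71 (FDR = 0.00484, 0.0736 without ESC replicate 2). For H19 the MEFs of the cassettes began from different levels. It was lower by 4.92 in TNG MKOS ESCs (FDR = 2.00e-06). In TNG OKMS ESCs it had a pooled ratio to OKMS MEFs of 1 to 12237 (95% interval 4779 to 44916). Peg10 was the one gene higher in TNG MKOS ESCs, by 1.62 (FDR = 0.0112, 0.103 without MKOS MEF replicate 1 and 0.0933 without ESC replicate 2). Plagl1 was at least 160-fold lower in TNG OKMS ESCs than in OKMS MEFs (FDR = 4.62e-06), while in MKOS both conditions were near 0. Impact did not pass the test in either (log2 0.56 and -0.54, FDR = 0.0947 and 0.110), though DESeq2 called it lower in TNG OKMS ESCs (0.0164).

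Most genes on a list for imprint maintenance and DNA methylation rose from MEFs to E-CAD+ 2NG- cells. The 13 tested include the DNA methyltransferases, their recruiter Uhrf1, and Zfp57 and Trim28, which hold methylation at imprinting control regions. They also include the TET genes, which encode erasers of methylation, so the counts mix genes that keep and genes that remove it. From MKOS MEFs to E-CAD+ 2NG- cells 9 rose and 0 fell, against 15% of all transcripts that rose. In OKMS 10 rose and 0 fell, against 15.7%. The median log2 changes were 1.50 and 1.46. Hells, a chromatin remodeller needed for DNA methylation, rose by 2.24 in MKOS and 1.62 in OKMS, and Uhrf1 rose by 1.50 and 1.93. Several of these genes are also higher in dividing cells. From OKMS 3NG- to 3NG+ cells 7 rose and 0 fell (6.26% of transcripts called, 3.06% higher), Zfp57 by 1.30 and Trim28 by 1.06. In 2i iPSCs the de novo methyltransferase gene Dnmt3a was lower than in iPSCs -dox with both cassettes, by 3.11 in MKOS (the 1 call of 13, against 1.08% of transcripts lower) and 2.72 in OKMS (0.365% lower), where Dnmt3l, its cofactor gene, was lower too, by 3.08.

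Imprinted genes of other domains changed in both directions. From MEFs to E-CAD+ 2NG- cells 3 of 27 rose and 5 fell in MKOS, and 3 rose and 8 fell in OKMS, while 27% and 29.2% of all transcripts were called in these comparisons. The median log2 changes were -0.24 and -0.65. Gnas, which encodes a G-protein subunit, fell by 1.49 and 1.91, and Ndn, a growth-suppressing gene of the Prader-Willi domain, by 2.93 and 3.17. Snurf, of the same domain, rose by 2.73 and 3.22. Of the 20 tested neighbours of the 10 genes, 1 rose and 4 fell with each cassette, close to those shares. In the Dlk1-Dio3 cluster 3 of 6 fell with each cassette (12% and 13.5% of all transcripts fell), Meg3 by 2.84 and 2.29. From MKOS 3NG+ cells to iPSCs, where 2.14% of transcripts were called, 3 of the 6 rose, Meg3 by 2.86 and Rian by 2.89, and from OKMS 3NG+ cells to iPSCs none was called.

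Patterns over conditions differed among the 10 genes. Over the 20 condition means of log2 CPM, the 45 pairs of members had Pearson correlations of -0.312 to 0.798 (median 0.444), with 39 above 0 and 16 above 0.5. These are descriptions over conditions that share cell lines and the contrast of MEFs with pluripotent cells. Mir675, the annotated microRNA gene within H19, was the transcript most like H19 (0.968), and none of its 13729 reads was unique, whereas all 112459 reads counted for H19 were; the counts do not say which transcripts shared the Mir675 reads. Igf2 was most like Smoc2, Prrx1 and Vcam1 (0.983 to 0.986) and Peg3 most like Lamb1 (0.932), Syt13 (0.931) and Snap47 (0.926). The closest transcripts to Igf2r were Ugdh (0.946) and Ubtd1 (0.944), to Grb10 Adam33 (0.883), to Cdkn1c Smarca1 (0.891) and to Mest Ift27 (0.901). Likeness was lower for Peg10 (B3galt6, 0.819) and Impact (Gm962, 0.753).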

How the data were processed

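The authors sequenced 48 STRT libraries of 20 conditions and deposited raw read counts per transcript, with repeats and spike-in RNAs as further rows, aligned with Bowtie 0.12.7 per the labels. The notes name mm10 and the methods mm9, and the deposited gene positions matched GRCm38 (mm10). Counts of reads shared between transcripts are included (73.9% of transcript reads were unique), and columns were matched to samples by name. The 24264 transcript rows were fitted in edgeR 4.0.16 (R 4.3.3), with TMM factors, filterByExpr by condition, 20 condition coefficients, the quasi-likelihood test and Benjamini-Hochberg adjustment over 15630 transcripts, at an FDR of at most 0.05. CPM values divide by the reads on transcripts. Alternatives used DESeq2 1.42.0, its size factors, no TMM factors, no filter, a replicate block, fewer libraries, and each library left out. Neighbouring genes, other imprinted genes, genes of imprint maintenance and DNA methylation, IGF genes and cell markers formed the lists. At most 4 called genes per list and comparison, by FDR, and the 3 transcripts most correlated with each gene were eligible for naming. The members and lists were chosen with earlier results of these data known, and comparisons with WT MEFs, of D6 and 2i iPSCs with other lines, and of cassettes after 3NG- were added after the values were seen. Fits were tested on simulated data.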

Additional observations from a re-analysis of the deposited data

Results flagged for a closer look

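The H19 change from MEFs to E-CAD+ 2NG- cells differed between cassettes, by 5.03 ± 0.76 (SE) on the log2 scale (FDR = 0.000124, edgeR quasi-likelihood test of the interaction). MKOS MEFs began at 33.6 and 31.2 CPM and OKMS MEFs at 2730 and 3554 CPM, while the sorted cells stood at 20.5 to 74.5 CPM and 60.3 to 213 CPM. The MKOS and OKMS MEFs come from different chimeric embryos, so cassette, ESC line and embryo cannot be told apart. The Grb10 change from 3NG+ cells to iPSCs -dox differed between cassettes by -4.27 ± 0.75 (FDR = 0.00419), with 107, 104 and 27.2 CPM in MKOS 3NG+ cells against 6.56, 9.09 and 5.58 CPM in OKMS 3NG+ cells, and 5.50 to 10.5 CPM in the iPSCs. This comparison was added after the values were seen. No group had enough libraries for a test of single outlying libraries.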

How the results depend on the processing

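The 38 calls of the 10 genes over the 5 comparisons with MEFs were the steadiest, at 38 or 39 under each alternative to the edgeR fit and 33 to 38 with single libraries left out. Without the low-count filter the calls went from 10 to 18 between cassettes, from 4 to 13 between sorted populations, from 5 to 8 between 3NG+ cells and iPSCs, from 16 to 31 between pluripotent lines and from 5 to 9 between MEFs. In a fit of only the libraries compared they were 6 between cassettes, 3 between 3NG+ cells and iPSCs and 13 between MEFs. The cause was not tested in either. A fit without the 7 sorted libraries that the population averages of the study leave out (replicate 3 of the 2NG- and 3NG- populations, and replicate 2 of OKMS 3NG+) gave 8 between sorted populations, 9 between 3NG+ cells and iPSCs and 24 between pluripotent lines. With single libraries left out the ranges were 7 to 11, 3 to 7, 3 to 5, 13 to 16 and 3 to 5. In proportion to the counts over all libraries, the largest move came without OKMS E-CAD+ 2NG- replicate 3 (7 between sorted populations). The next came without OKMS 3NG+ replicate 1 (3 between 3NG+ cells and iPSCs). Moves as large as the latter came without OKMS iPSC -dox replicate 1 and, between MEFs, without either MKOS MEF library, which leave 1 library in a group. Of 97 called results, 50 kept their call in every setting and 47 lost it in at least one.

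Values of Peg3 and H19 changed sign. Peg3 between cassettes in E-CAD+ 2NG- cells became 0.11 on the log2 scale without the 7 libraries and ranged from -2.54 to 0.091 with single libraries left out, the latter without OKMS replicate 3. H19 from MKOS MEFs to 2NG- cells became -0.095 without the 7 libraries and ranged from -0.025 (without MKOS 2NG- replicate 3) to 0.84 with single libraries left out. With the replicate number as a block the calls were 38, 12, 5, 8, 20 and 7 in the order above, and none of the 97 calls was lost. The block added 14 calls, among them Grb10 in OKMS against WT MEFs (FDR = 0.00859), MKOS against OKMS MEFs (0.0168), OKMS iPSCs -dox against ESCs (0.0128) and the difference between cassettes from 3NG- to 3NG+ (2.57 on the log2 scale, 0.0114), Igf2 between cassettes in 2NG- and 3NG- cells (0.00935 and 0.0459) and Plagl1 in MKOS 2i against -dox iPSCs (0.0464). Nothing in the labels says that a number marks a shared culture or day. Same-numbered libraries had correlations of their deviations over 0.1 in 19 of 39 cases within a cassette (-0.0443 to 0.320, median 0.0981). Between cassettes they did in 2 of 45 (median 0.0434). All 3 numbers passed 0.1 in 0 of the 28 pairs of sorted populations. The libraries were not treated as paired in the main fit. Whether same-numbered libraries of a cassette shared a culture was not tested. DESeq2 gave 39, 13, 5, 7, 13 and 3, without the 2 tests for any difference, which were not run in it. Fits with a library left out kept the dispersion trend of all libraries. Depth limits Plagl1, Cdkn1c and Igf2 in pluripotent cells, where single libraries held no read.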

Other observations

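Trophoblast markers are given because Peg10 and Phlda2 are active in placenta. The 7 genes summed to a mean of 54.1 and 58.8 CPM in OKMS E-CAD+ 2NG- and 3NG- cells, with Eomes the most abundant, and to 16.9 and 27.3 CPM in the MKOS populations, with Krt7 the most abundant. Eomes was uneven between the OKMS libraries. Its median was 3.41 CPM and its maximum 54.6 CPM in E-CAD+ 2NG- cells, against 13.03 and 84.05 CPM in E-CAD+ 3NG- cells. Elf5 was less uneven, with medians of 23.5 and 8.03 CPM and maxima of 26.1 and 16.4 CPM. Cdx2 reached at most 0.341 and 1.88 CPM. Whether trophoblast cells were present was not tested. The 4 blood and endothelial markers summed to a mean of 2.45 to 6.88 CPM in MEFs and 6.33 to 35.8 CPM in sorted Nanog-GFP- populations. At the upper end, in MKOS 3NG- cells, Cd68 averaged 27.5 CPM and Pecam1 6.42 CPM. Ptprc averaged 1.84 CPM there and Cdh5 had no read. Cd68 and Pecam1 were also read in every iPSC and ESC condition, so the sum does not mark blood or endothelial cells. Phlda2, with no read in MKOS MEFs, averaged 144 CPM in MKOS 2NG- cells and 29.5 to 93.3 CPM in the ESC conditions. Nnat had no read in any of the 6 libraries of TNG-derived ESCs and averaged 4.09 CPM in E14 ESCs and 58.6 CPM in WT MEFs.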
